A study of Mus musculus with 65 samples.

Results

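Btg2, Gadd45g, Cdkn1b and Cdkn1c, 4 genes known for taking dividing cells out of the cell cycle, were followed through 65 single cells of the embryonic mouse cortex. They were chosen by name, as the cell cycle exit genes among the 11971 genes of the count table, and all 4 were present in it. The cells came from C57BL/6J embryos at embryonic stage E13.5, when the cortex is producing its early excitatory neurons. Ganglionic eminences had been removed, the brains of the embryos were pooled, and cells that excluded the dead-cell dye propidium iodide were sorted 1 by 1 into lysis buffer for full-length cDNA libraries. No genotype, treatment or time point parted the cells, so that they formed 1 group with no replicate animals. Values below therefore describe these 65 cells, and intervals and spreads do not measure differences between embryos.

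Each of these genes is known to slow or stop proliferation, and not all of them act at the same step. Btg2, also called Tis21, belongs to the BTG/TOB family of antiproliferative proteins that bind the CCR4-NOT deadenylase, and it is a classical marker of cortical progenitors whose next division gives neurons. Gadd45g encodes a stress-inducible protein that binds the mitotic kinase Cdk1 with cyclin B1 and activates stress kinases, and in the embryonic nervous system it accompanies proneural genes. Cdkn1b and Cdkn1c encode the Cip/Kip inhibitors of cyclin-dependent kinases known as p27Kip1 and p57Kip2. p27Kip1 is controlled largely through destruction of the protein, and Cdkn1c is an imprinted gene expressed from the maternal copy. In the cortical wall, apical progenitors with Sox2 and Pax6 give rise to intermediate progenitors with Eomes (Tbr2), and these to neurons with Neurod6 and Dcx. Neurog2 is the proneural factor of that lineage, and Ccnb1 encodes the cyclin that peaks before mitosis.

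The stretches upstream of the genes are shown because Btg2 and Gadd45g were found together in the same cells, as given below. Promoters of 3 of the 4 genes were matched by symbol in a RefSeq promoter table of build GRCm38.p6, and Cdkn1c is named only. The 250 bases before the annotated start site are printed 5′ to 3′ on the gene's own strand. They lie at chr1:134079156-134079405 (minus strand) for Btg2, chr13:51846425-51846674 (plus strand) for Gadd45g and chr6:134920151-134920400 (plus strand) for Cdkn1b. Capitals mark every match, on either strand, of the CCAAT box, the TATAAA box, CAGCTG (an E-box of the kind bound by bHLH factors) and TGACGTCA (the cAMP response element).
Btg2: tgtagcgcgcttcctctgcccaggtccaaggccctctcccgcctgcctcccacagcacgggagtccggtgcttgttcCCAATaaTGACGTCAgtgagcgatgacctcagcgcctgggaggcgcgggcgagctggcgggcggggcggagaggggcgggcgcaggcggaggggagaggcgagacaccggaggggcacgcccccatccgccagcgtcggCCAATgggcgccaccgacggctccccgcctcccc
Gadd45g: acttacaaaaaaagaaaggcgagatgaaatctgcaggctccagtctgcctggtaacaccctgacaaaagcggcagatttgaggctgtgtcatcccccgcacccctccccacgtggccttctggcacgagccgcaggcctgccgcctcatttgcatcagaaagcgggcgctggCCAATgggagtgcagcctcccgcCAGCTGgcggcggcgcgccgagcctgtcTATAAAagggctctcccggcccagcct
Cdkn1b: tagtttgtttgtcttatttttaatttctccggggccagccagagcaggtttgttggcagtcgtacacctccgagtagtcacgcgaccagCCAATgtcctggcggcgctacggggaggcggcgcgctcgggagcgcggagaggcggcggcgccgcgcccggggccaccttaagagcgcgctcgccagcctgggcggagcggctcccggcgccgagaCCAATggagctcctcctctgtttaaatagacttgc

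All 3 upstream stretches held CCAAT, a motif found in 33.9% of the 32851 promoters searched over the same length. Btg2 had 2 CCAAT matches and 1 match of TGACGTCA, which 1.55% of promoters held. Gadd45g had 1 CCAAT match, 1 match of CAGCTG, which 13% of promoters held, and 1 match of TATAAA, which 12.4% held. Cdkn1b had 2 CCAAT matches and none of the other 3 motifs. The E-box CAGATG, held by 14.4% of promoters, was in none of the 3 stretches. GGGCGG, held by 32.7% and left in lower case, had 3 matches in Btg2, 1 in Cdkn1b and none in Gadd45g. These matches describe letters in a window and were not linked to binding.

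Cells had between 85338 and 32130629 reads in genes, with a median of 14609426, and 3 cells had fewer than 1000000. The sample titles carry 3 set numbers, with 31, 13 and 21 cells, whose meaning is not stated, and the main shares, correlations and differences are also given by title set in case these were batches. Counts were scaled to CPM, the count divided by the cell's total and multiplied by 1000000, and “expressed” means at least 10 CPM. The reads carry no molecular identifiers. The exact 95% intervals given for shares of cells cover counting error only, because cells are not replicates of animals. CPM was not divided by transcript length, so levels are compared between cells for 1 gene and never between genes. All cells are labelled as neural progenitors, yet 16 of them expressed Neurod6 and 34 expressed Dcx, both markers of neurons.

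Btg2, the marker of neurogenic divisions, was expressed in 30 of 65 cells, or 46.2% (33.7 to 59%). Its level ran from 0 through a median of 2.54 CPM to 1771 CPM, with a median of 368 CPM among the expressing cells. Btg2 was close to an on or off signal, since the highest cell under the threshold had 7.31 CPM, the lowest over it 14.3 CPM, and 25 cells reached 100 CPM. It was expressed in 14 of 31, 6 of 13 and 10 of 21 cells of title sets 1, 2 and 3. These shares were within each other's intervals.

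Gadd45g was expressed in 19 of 65 cells, or 29.2% (18.6 to 41.8%), the lowest number among the 4 genes. Its level ran from 0 through a median of 0.0869 CPM to 926 CPM, with a median of 223 CPM among the expressing cells. The gap around the threshold was wide for Gadd45g, from 6.18 CPM to 31 CPM. It was expressed in 9, 5 and 5 cells of title sets 1, 2 and 3. In the cell with the fewest reads, the 223 CPM of Gadd45g rested on 19 reads and the 23.4 CPM of Btg2 on 2 reads, so that Btg2 was counted there from very few reads.

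Cdkn1b was the most widespread of the 4, expressed in 48 of 65 cells, or 73.8% (61.5 to 84.0%). Its level ran from 0 through a median of 55.2 CPM to 437 CPM, and 62 cells had at least 1 read of it. It was graded rather than on or off, with 7.34 CPM and 10.6 CPM in the cells on either side of the threshold. Cdkn1b was also the member that differed most between title sets. Its shares in sets 1 to 3 were 87.1%, 76.9% and 52.4%, with medians of 73.3, 158 and 14 CPM. Set 3 held the deepest libraries, with a median of 22483962 reads. Whether the sets differ in the cells they hold or in how they were made cannot be told apart.

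Cdkn1c was expressed in 22 of 65 cells, or 33.8% (22.6 to 46.6%), in 13, 4 and 5 cells of the 3 title sets. Its level ran from 0 through a median of 0.0890 CPM to 5852.5 CPM. Few cells carried most of it: the highest cell held 45.2% of its CPM summed over all cells, and the 3 highest held 75%. Most other expressing cells were far lower, with a median of 137 CPM over the 22.

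Part of this spread moved with the number of genes detected in a cell, most of all for Btg2. The Spearman correlation across the 65 cells, which share 1 protocol but differ in depth, was 0.38 for Btg2, 0.32 for Gadd45g, 0.20 for Cdkn1b and 0.07 for Cdkn1c. Its part in the results below was not tested, and depth is addressed by the thinned values of the closing section.

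Btg2 and Gadd45g exceeded the overlap that independence would give by more cells than any other pair of the 4. Both were expressed in 16 cells, 24.6% of all, where independent genes of the same frequency would share 8.77 cells. These 16 were 84.2% of the Gadd45g cells and 53.3% of the Btg2 cells, so that Gadd45g was nearly nested within Btg2. They came from every title set, with 8, 4 and 4 cells. Across the 65 cells the Spearman correlation was 0.52, with 0.54, 0.48 and 0.29 within the sets and 0.48 when the 2 cells farthest from the median were dropped. Among 8376 genes with a mean of 10 CPM or more, Gadd45g had the second highest correlation with Btg2, and Btg2 the second highest with Gadd45g.

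The other 5 pairs stood near the number that independence would give. Btg2 and Cdkn1b shared 24 cells where 22.2 would be shared, and Gadd45g and Cdkn1b shared 16 where 14 would be. Cdkn1c, the p57Kip2 gene, shared 9 cells with Btg2 (10.2), 7 with Gadd45g (6.43) and 17 with Cdkn1b (16.2). The correlations of these 5 pairs lay between -0.08 and 0.20. No member was expressed in 7 cells, 1 member in 19, 2 in 23, 3 in 10 and all 4 in 6 cells.

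The gene most like both Btg2 and Gadd45g was Dll1, which encodes the Notch ligand that newly committed cells present to their neighbours. Its correlation was the highest of the 8376 genes with each of them, at 0.53 with Btg2 and 0.68 with Gadd45g. Of 18 cells with Dll1, 15 expressed Btg2 (8.31 if independent) and 14 expressed Gadd45g (5.26). These counts restate that ranking in part. Within title sets the correlation with Gadd45g was 0.77, 0.65 and 0.38, and with Btg2 it was 0.45, 0.69 and 0.55. Mfng, a glycosyltransferase that modifies Notch, shared 14 of its 21 cells with Gadd45g (6.14), with a correlation of 0.50. Hes6, a bHLH factor of differentiating progenitors, correlated with Gadd45g at 0.48, though at -0.01 within set 3, and with Btg2 at 0.29.

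**Figure D1:**
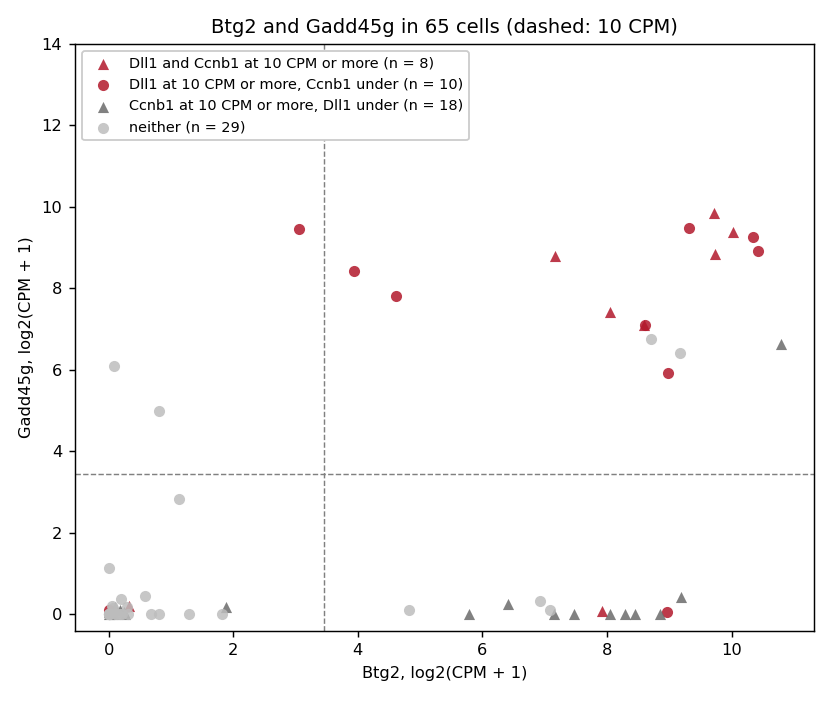
Btg2 (x axis) against Gadd45g (y axis) in the 65 cells, both as log2(CPM + 1), with dashed lines at 10 CPM and symbols for Dll1 and Ccnb1. The upper right corner holds the 16 cells with both genes, 13 of them with Dll1, and the lower right corner the 14 cells with Btg2 but not Gadd45g, 10 of them with Ccnb1.

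Cells with both genes and cells with Btg2 alone differed in what else they expressed (16 and 14 cells). This division was made after the overlap was seen and its values are a description. Dll1 was expressed in 13 of 16 cells with both genes, in 2 of 14 with Btg2 alone and in 2 of 32 with neither. Mfng was expressed in 12, 1 and 6 of these cells, and so was also most frequent with both genes. Dll1 and Mfng were named for their correlations with the members that define these groups. Their counts here therefore restate those correlations in part and are no separate support. The lineage genes Neurog2 and Eomes were each expressed in 9 of the 16 cells with both, and in 3 and 2 of the 14 with Btg2 alone.

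Ccnb1 ran the other way. It was expressed in 10 of 14 cells with Btg2 alone (71.4%, 41.9 to 91.6%) and in 7 of 16 with both (43.8%, 19.8 to 70.1%), and these intervals overlap. Of 36 genes of the G2 and M phases, a median of 20.5 were expressed in cells with Btg2 alone, 8.5 in cells with both and 3.5 in cells with neither. Pax6, of apical progenitors, was expressed in 9 of the 14 and in 6 of the 16. Dcx, of neurons, was expressed in 2 of the 14, in 9 of the 16 and in 21 of the 32 cells with neither gene. The 3 cells with Gadd45g but not Btg2 came 1 from each title set and are too few to describe further.

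**Figure D2:**
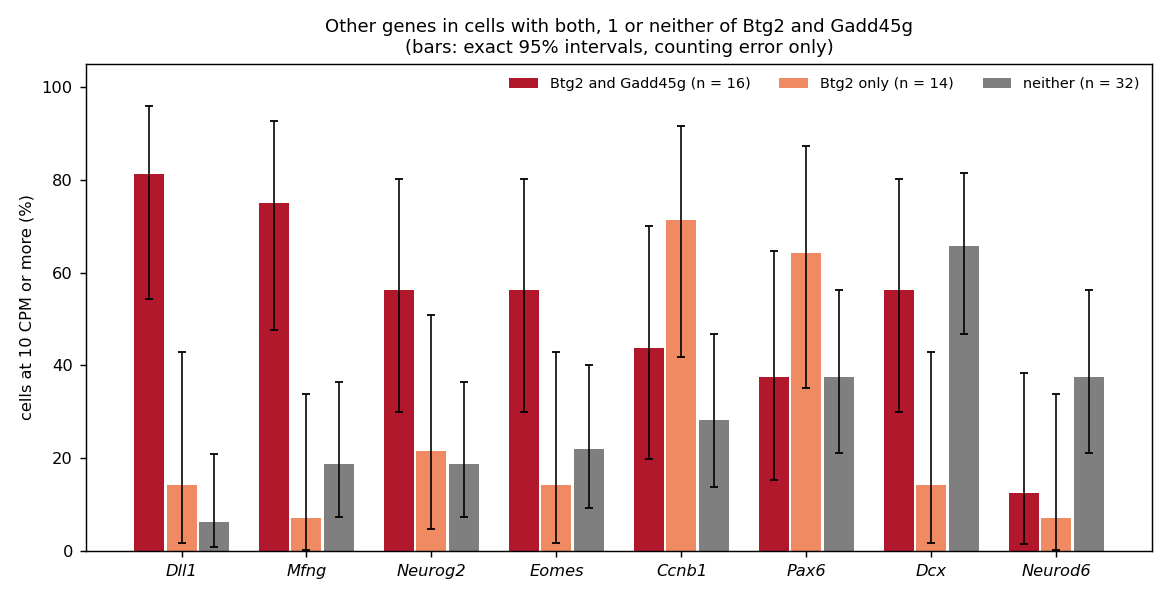
Share of cells (y axis, percent) that expressed each of 8 genes (x axis) at 10 CPM or more, in cells with both Btg2 and Gadd45g (n = 16), Btg2 only (n = 14) or neither (n = 32), with exact 95% intervals as bars. Dll1, named for its correlation with Btg2 and Gadd45g, stood at 81.2% with both genes, 14.3% with Btg2 only and 6.25% with neither. Ccnb1 was most frequent with Btg2 only, at 71.4%.

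The same cells were then sorted by their markers rather than by the members. Ccnb1, Eomes and Pax6 were counted above and also define these classes. The values therefore restate those overlaps in part and are no separate support. Cells were put into exclusive classes, first those with at least 3 of 13 measured interneuron and subpallial genes (10 cells), then Neurod6 cells (16), Eomes cells without Neurod6 (10), and Sox2 or Pax6 cells with Ccnb1 (16) or without it (5), which left 8 cells. The cell with the fewest reads fell in the Eomes class through 1 read of Eomes, at 11.7 CPM. Btg2 was expressed in 11 of 16 Sox2 or Pax6 cells with Ccnb1, at a median of 159 CPM, and in 8 of 10 Eomes cells without Neurod6, at a median of 539 CPM. Only 3 of 16 Neurod6 cells expressed it, at a median of 0.213 CPM, and all 3 were in title set 1. Gadd45g was expressed in 2 of the 16 Sox2 or Pax6 cells with Ccnb1 and in 8 of the 10 Eomes cells, at medians of 0.0228 and 179 CPM. It was found in 3 of 16 Neurod6 cells and 5 of 10 cells of subpallial type.

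The Cip/Kip genes were distributed otherwise. Cdkn1b was expressed in 13 of 16 Sox2 or Pax6 cells with Ccnb1, 8 of 10 Eomes cells and 15 of 16 Neurod6 cells, at medians of 57.7, 87.1 and 60.6 CPM. The Ccnb1 class reached 238 CPM and the Neurod6 class 437 CPM, and their values overlapped widely. Cdkn1c was expressed in 2 of 16 and 2 of 10 cells of the same progenitor classes, in 7 of 16 Neurod6 cells and in 6 of 10 cells of subpallial type. Its 2 highest cells, at 5852.5 and 2029 CPM, were both of subpallial type, and both expressed all 4 members.

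**Figure D3:**
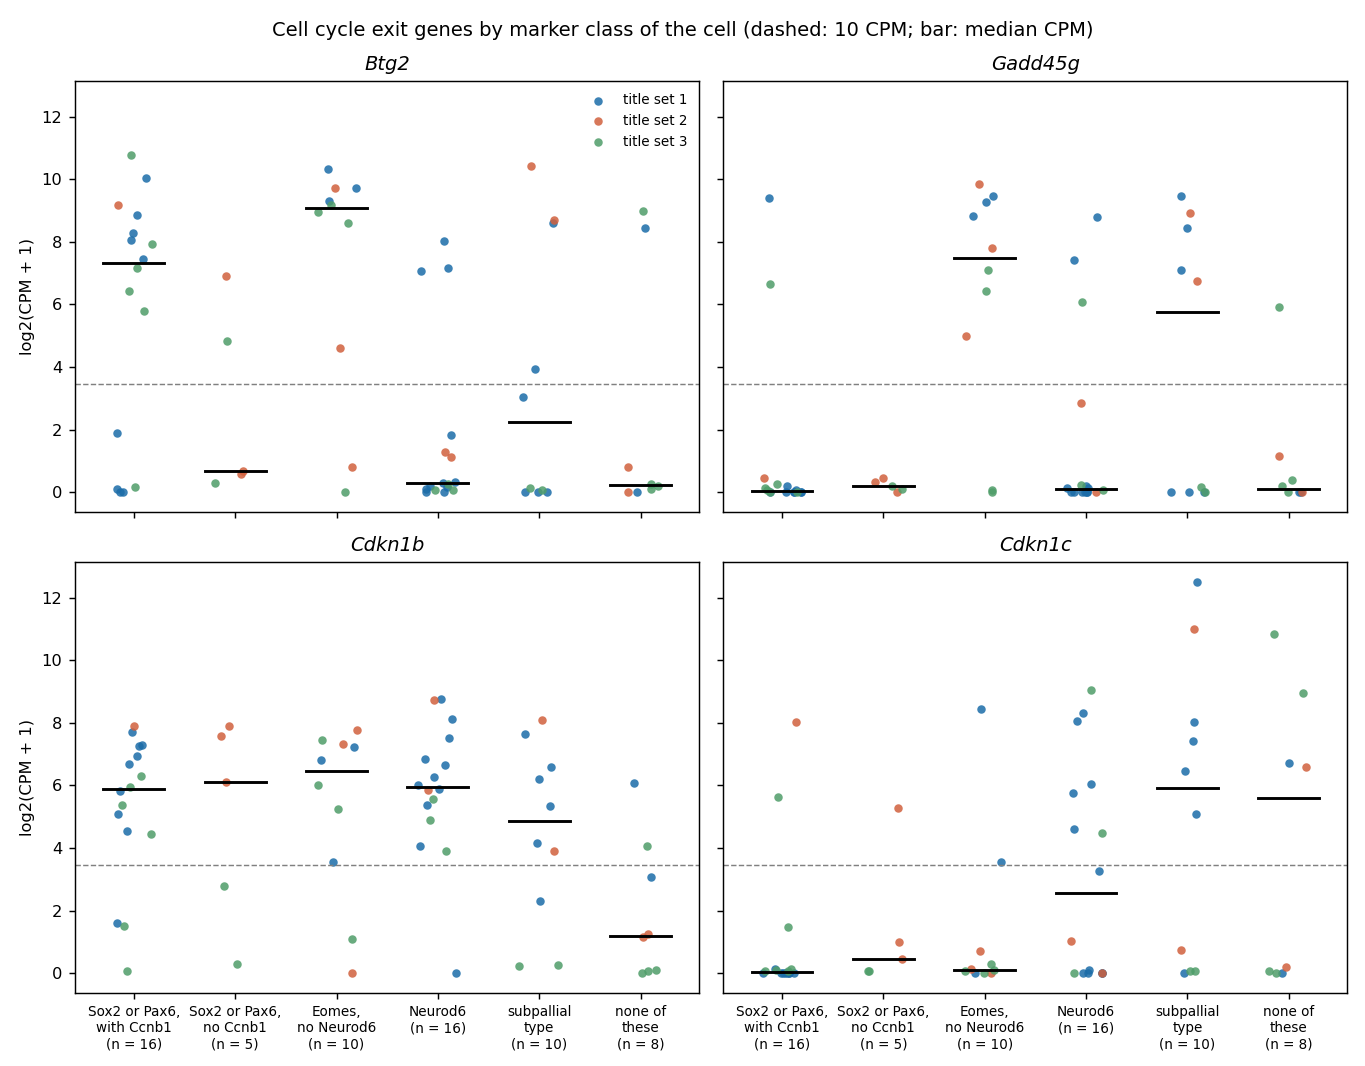
Level of each gene in each cell (y axis, log2(CPM + 1)) by marker class (x axis), coloured by title set, with the dashed line at 10 CPM and bars at the median CPM. Btg2 was high in the Ccnb1 and Eomes classes, Gadd45g in the Eomes class with few cells in the Ccnb1 class, Cdkn1b in nearly every class, and Cdkn1c in scattered cells that reached 5852.5 CPM.

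To set the members beside the rest of the transcriptome, cells with and without each of 5 marker genes were compared by the difference in mean log2(CPM + 1). A difference of 1 or more was called. No test was possible with 1 sample, and the share of the 8376 genes called in each direction is given as the background.

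Gadd45g differed most between cells with and without Eomes. In the 20 Eomes cells its level ran from 0 through a median of 49 to 926 CPM, and 11 expressed it (55%, 31.5 to 76.9%). In the 45 cells without Eomes it reached 708 CPM, but only 8 expressed it (17.8%, 8.0 to 32.1%). The groups overlapped in range, and their means differed by 2.78 on the log2 scale, and by 2.29, 3.34 and 3.04 within the title sets. Gadd45g, Btg2 and Cdkn1b were all called higher with Eomes, as were 10.6% of all genes, and 9.49% were called lower. Btg2 was expressed in 11 of 20 Eomes cells and 19 of 45 others. Its difference of 1.30 did not keep its sign, at 1.49, -0.17 and 2.03 in the 3 sets. Cdkn1b was expressed in 18 of 20 Eomes cells and 30 of 45 others, a difference of 1.6, with 1.05, 0.42 and 2.56 in the sets. Cdkn1c differed by -0.24 and was not called, but the sets went opposite ways, at 2.05, -3.61 and -2.48, and the difference was -2.87 without set 1.

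Among Eomes cells, Btg2 and Gadd45g were less frequent where Neurod6 was also expressed, with overlapping intervals (44.4 to 97.5% and 6.67 to 65.2% for each gene). Among the 10 Eomes cells without Neurod6, 8 expressed Btg2, 8 expressed Gadd45g and 7 expressed Dll1. Each of these counts includes the cell with the fewest reads, where Eomes rested on 1 read and Btg2 on 2 reads. Among the 10 Eomes cells that also expressed Neurod6, 3 expressed Btg2, 3 Gadd45g and 4 Dll1. In the 6 Neurod6 cells without Eomes neither Btg2 nor Gadd45g reached 10 CPM, which with 6 cells still allows a share of up to 45.9%. Cdkn1b was frequent in all of these groups, in 8 of 10, 10 of 10 and 5 of 6 cells, and Cdkn1c was expressed in 2 of 10, 5 of 10 and 2 of 6. This sorting by a pair of genes was chosen with the values in view.

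With Neurog2, the proneural factor, Btg2 and Gadd45g were both called higher, as were 13.3% of all genes, and 6.58% were called lower. Btg2 had a median of 143 CPM in the 19 Neurog2 cells, of which 12 expressed it, while 18 of 46 other cells did. The difference was 2.36, and 2.19, 1.02 and 3.43 in the title sets. Gadd45g was expressed in 10 of 19 and 9 of 46 cells, a difference of 2.59, and 1.64, 3.30 and 3.87 in the sets. Both genes thus differed in the same direction in every set. Title set 2 held only 3 Neurog2 cells, however, 1 of them the cell with the fewest reads. The correlation of Btg2 with Neurog2 within that set was -0.0057. Cdkn1b differed by 0.96, just under the call, with -0.57 in set 2. Cdkn1c differed by -0.26, with 1.38, -3.26 and -1.35 in the sets and -2.06 without set 1.

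With Ccnb1, the mitotic cyclin, Btg2 alone among the members was called higher. Its level in the 26 Ccnb1 cells ran from 0 through a median of 159.5 to 1771 CPM, and 17 expressed it (65.4%, 44.3 to 82.8%). Of the 39 cells without Ccnb1, 13 did (33.3%, 19.1 to 50.2%), and the highest reached 1377 CPM. The difference was 2.65, with 3.53, 6.18 and 0.87 in the sets, and title set 2 held only 2 of the Ccnb1 cells. The background was large here, since 28.4% of all genes were called higher and 4.63% lower. Gadd45g differed by -0.19 and Cdkn1b by 0.61, neither of them called. Cdkn1c was called lower, at -1.02, but only title set 1 went that way: the set values were -3.11, 1.62 and 0.97, and the difference was 0.82 without set 1.

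With the neuronal genes, Btg2 was lower. In the 16 Neurod6 cells its median was 0.213 CPM and its highest value 263 CPM, and 3 of these cells and 27 of the 49 others expressed it. The difference was -2.95, with -2.61, -3.56 and -4.31 in the sets. Across Dcx, 11 of 34 cells with it and 19 of 31 without it expressed Btg2, a difference of -2.64, with -2.87, -3.44 and -2.72. Btg2 thus had the same direction for both genes in every title set, though sets 2 and 3 held only 2 and 3 Neurod6 cells. For Neurod6, 16.8% of all genes were called higher and 13.6% lower, and for Dcx 12.5% and 19.3%.

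Gadd45g was called lower with Neurod6, at -1.05, but set 3 went against it with 0.59, and with Dcx it differed by 0.41. Cdkn1b was called higher with Neurod6, at 1.37, with 0.36, 1.94 and 1.94 in the sets. It was expressed in 15 of 16 Neurod6 cells and 33 of 49 others. With Dcx it differed by 0.53. Cdkn1c was called higher with Dcx, at 1.41, where 14 of 34 cells with Dcx (41.2%) and 8 of 31 without it (25.8%) expressed it. That value came from title set 1, where it was 3.05. It was -1.30 and -0.03 in the other sets, and -0.19 without set 1. With Neurod6 Cdkn1c differed by 0.71, with 0.37, -2.58 and 2.95 in the sets.

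**Figure D4:**
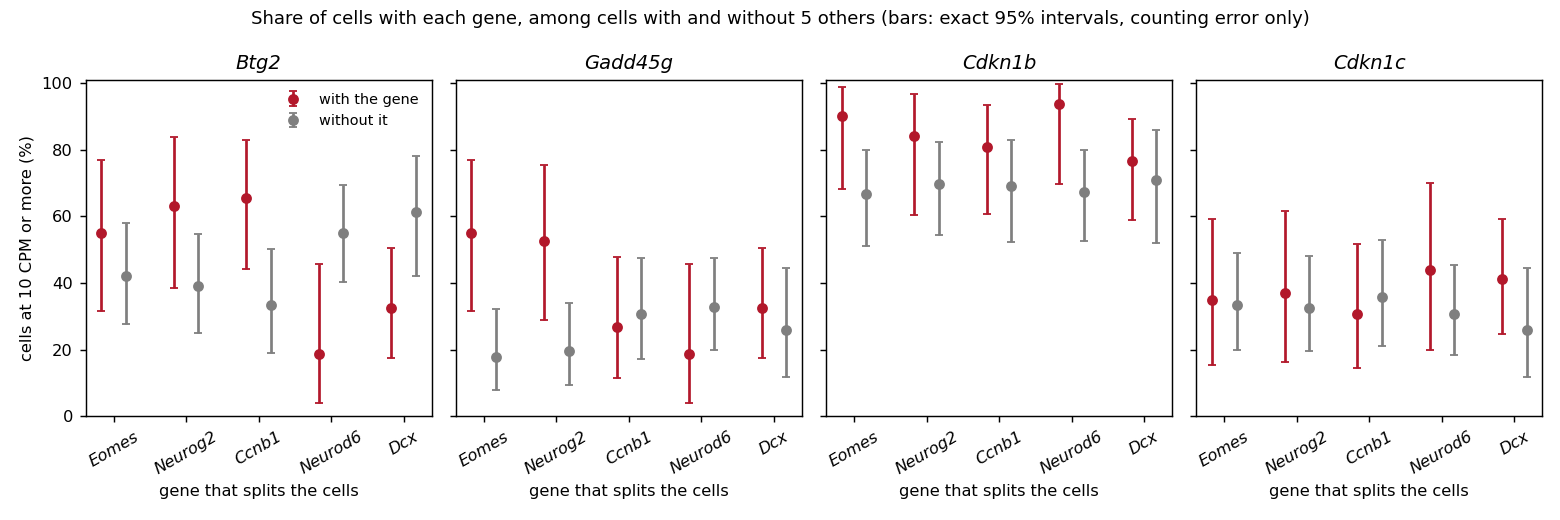
Share of cells (y axis, percent) with each member at 10 CPM or more, among cells with (red) and without (grey) Eomes, Neurog2, Ccnb1, Neurod6 or Dcx (x axis), with exact 95% intervals as bars. Gadd45g stood at 55% with Eomes and 17.8% without it, and Btg2 at 65.4% with Ccnb1 and 33.3% without it. The intervals with and without a gene overlapped for every member and every gene.

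Although these genes are known for cell cycle exit, they were not confined to cells without cell cycle genes. In 13 cells that expressed at least 18 of the 36 G2/M genes, 11 expressed Btg2 (84.6%, 54.6 to 98.1%), 13 Cdkn1b, 5 Cdkn1c and 4 Gadd45g. Among the other 52 cells, 19 expressed Btg2 (36.5%, 23.6 to 51%), 35 Cdkn1b, 17 Cdkn1c and 15 Gadd45g. In the 10 cells with 3 or fewer genes of each phase list, none expressed Btg2 at 10 CPM, which still allows a share of up to 30.9%. Of these 10 cells, 6 expressed Cdkn1b, 3 Cdkn1c and 1 Gadd45g. The number of G2/M genes in a cell correlated with Btg2 at 0.48, with 0.63, 0.27 and 0.27 in the sets. Both measures also move with the number of genes detected in a cell, whose part was not tested.

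Gene lists were counted over their genes with a mean of 10 CPM or more, without the member itself. Among lists of cell cycle genes, Btg2 was positively correlated with all 36 G2/M genes, at a median of 0.32, and 24 of them reached 0.30. Over all 8376 genes the median correlation with Btg2 was 0.08, 70.0% of genes were positive and 6.04% reached 0.30. Cdk1, the mitotic kinase, stood at 0.45, and Cdc20, an activator of the anaphase-promoting complex, at 0.44. For Gadd45g 28 of the 36 were positive, at a median of 0.09, beside 0.05 over all genes. G1/S genes were positive with Btg2 in 25 of 26 cases and with Gadd45g in 25 of 26, with medians of 0.27 and 0.19. Among them the replication genes Mcm2 and Rrm1 each stood at 0.45 with Btg2. Cdkn1c was different, with 3 of 26 G1/S genes positive and a median of -0.14, beside 54.4% positive and 0.02 over all genes.

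Lists of the lineage were described in the same way. Of 22 genes of neuronal maturation, 2 were positive with Btg2 (median -0.26), 5 with Gadd45g (-0.09), 11 with Cdkn1b (0.0022) and 17 with Cdkn1c (0.12). The neuronal genes Myt1l and Stmn2 stood at -0.42 and -0.38 with Btg2. Of 17 apical progenitor genes, 15 were positive with Btg2 (0.22) and 1 with Cdkn1c (-0.16). For Cdkn1c the title sets differed. Its correlation with the number of neuronal genes expressed in a cell was 0.38, -0.21 and -0.21 in sets 1 to 3. With the number of apical progenitor genes it was -0.42, 0.10 and -0.11. Ccnd1, the G1 cyclin of progenitors, reached 0.49 with Btg2, and Id4, an inhibitor of bHLH factors, -0.40 with Cdkn1c. Of 17 genes of the neurogenic transition, 16 were positive with Gadd45g (0.18) and 16 with Cdkn1b (0.14), while over all genes 65% and 63.5% were positive. On that list 13 were positive with Btg2, or 76.5% beside 70.0% of all genes. The median with Btg2 was 0.05 beside 0.08 over all genes, so Btg2 stood near the background. With Cdkn1c 14 were positive (0.10), or 82.4% beside 54.4% of all genes. The interneuron and subpallial list had 9 of 9 genes positive with Gadd45g (0.21) and 9 of 9 with Cdkn1c (0.24). Dlx5, a homeobox gene of interneuron development, stood at 0.34 with Gadd45g.

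The partners and regulators known for each protein gave weaker relations. The list of cyclins and kinases that the Cip/Kip proteins bind had 11 measured genes, among them Cdk5r1, which encodes an activator of Cdk5. All 11 were positive with Cdkn1b, at a median of 0.16 beside 0.05 over all genes, though Cdk5r1 stood at 0.0038. With Cdkn1c 4 of the 11 were positive (36.4%), beside 54.4% of all genes. Of 9 genes of p27Kip1 turnover, 7 were positive with Cdkn1b (77.8%), beside 63.5% of all genes. The highest were Fzr1, the Cdh1 activator of the anaphase-promoting complex, at 0.43, and Anapc2, a subunit of that complex, at 0.42. The pocket protein and DREAM list, which represses cell cycle genes, had 13 measured genes, 11 of them with a mean of 10 CPM or more. All 11 were positive with Btg2 (0.17), as were 70.0% of all genes. Of 12 genes of the BTG/TOB and CCR4-NOT list, the 11 others beside Btg2 had a median of 0.11 with it. Over all genes the median with Btg2 was 0.08. Cnot10 was highest on the list at 0.30. Of 7 p53 and FoxO genes, 3 were positive with Btg2, a classical p53 target, and 5 with Gadd45g, beside 70.0% and 65% of all genes. Trp53 itself stood at 0.35 with Cdkn1b.

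Relatives of the members were mostly rarer. Among other inhibitors, Cdkn1a (p21Cip1) was expressed in 5 cells and Cdkn3 in 11, Cdkn2d in 2 and Cdkn2c in none. Cdkn1a correlated with Cdkn1c at 0.34, its largest value with any member. Btg1, the closest relative of Btg2, was expressed in 52 cells but did not follow Btg2, with a correlation of -0.05. Tob1 was expressed in 25 cells and Tob2 in 9. Gadd45a was expressed in 7 cells, 5 of which also expressed Gadd45g, and correlated with Gadd45g at 0.32.

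Genes outside these lists were ranked by correlation over the 65 cells, keeping those with the same sign in all 3 title sets. For Btg2, Dll1 and Gadd45g were followed by Sec13, of vesicle coats and nuclear pores (0.51), and Pold1, the catalytic subunit of DNA polymerase delta, and C330027C09Rik (both 0.49). The lowest were the neural adhesion gene Ncam1 (-0.57), the cytoplasmic actin gene Actg1 (-0.48) and the mitochondrial carrier gene Slc25a46 (-0.45). For Gadd45g, Agfg2 (0.50) and Mis18a, of centromere assembly (0.48), joined Dll1, Btg2 and Mfng. Znrf3, a ubiquitin ligase of Wnt receptors (-0.41), the calcium pump gene Atp2b1 (-0.39) and Sart3 (-0.38) were lowest. None of their 17, 24 and 7 expressing cells expressed Gadd45g, which follows in part from picking them by low correlation.

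For Cdkn1b the highest were Brf1 of RNA polymerase III (0.50), Unc119b, Polr2a, the large subunit of RNA polymerase II, the ribosomal RNA precursor Rn45s and Rbm42 (all 0.48). The lowest were the mitochondrial ribosomal gene Mrpl41 (-0.46), the nucleotide kinase gene Nme2 (-0.42) and Plcxd3 (-0.40). For Cdkn1c the highest was Pik3r3, a regulatory subunit of PI3-kinase, at 0.63. Of its 17 cells 12 expressed Cdkn1c, a count that restates this correlation in part. Pik3r3 was followed by Poc5, of centrioles (0.55), Dgke (0.45), Tes (0.44) and Ocrl (0.43). The glycolytic hexokinase Hk2 (-0.46), the mitotic kinase Nek6 (-0.45) and Nanp (-0.43) were lowest.

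Not every Cdkn1c cell carried markers of the cortical lineage. The 2 expressing cells of title set 3 at 1829 and 491 CPM belonged to none of the marker classes. Their summed CPM over 9 measured genes of mural, endothelial, meningeal and microglial cells was 11967 and 19801, while no other cell exceeded 280 and the median of the others was 0.958. Lum, a matrix gene of meningeal fibroblasts, stood at 5116 and 10018 CPM, and Col3a1, a fibrillar collagen, at 4701 and 3009 CPM. Sox2, Pax6, Eomes and Dcx were at or below 1.41 CPM in both, and the other 3 members were at or below 0.298 CPM. The 2 cells alone expressed Col1a1 and Col1a2 at 10 CPM, genes whose correlation with Cdkn1b was -0.40 for each.

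The summed levels of other marker lists differed with the members as follows, and their part in the results was not tested. Without these 2 cells the summed mural and meningeal list stayed at or below 280 CPM in every cell. The red blood cell genes, of which 5 of 9 were measured, had median sums of 301 CPM with Btg2 and 236 CPM without it, and 236 and 223 CPM with and without Gadd45g. They were 193 CPM with Cdkn1b and 446 CPM without it, and 61.2 CPM with Cdkn1c and 420 CPM without it. Over 7 measured Cajal-Retzius genes the median sums were 11.7 CPM with Gadd45g and 1.0 CPM without it. The 11.7 CPM equals 1 read in the cell with the fewest reads, and the correlation of the sum with Gadd45g was only 0.10. The medians were 5.65 and 0.521 CPM with and without Cdkn1b, 5.65 and 0.908 CPM with and without Cdkn1c, and 2.89 and 2.26 CPM with and without Btg2. The interneuron and subpallial sum had medians of 43.6 CPM with Gadd45g and 4.16 CPM without it, 12.8 and 6.99 CPM with and without Cdkn1c, 10.9 and 6.99 CPM with and without Btg2, and 7.22 and 10.3 CPM with and without Cdkn1b. The ganglionic eminences, where such genes are known to be made, had been removed in dissection, and the source of these cells was not tested.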

How the data were processed

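RNA of 65 singly sorted cells was sequenced from SMARTer full-length cDNA, per the labels' protocols. The authors deposited raw counts, whole numbers of reads per gene and cell, and every gene in the table had a read in at least 5 cells. Per the submitters' processing notes, TopHat2, HTSeq and the mouse build mm9 were used, without stated versions or roles. No source used here states whether counting used strand, so antisense reads may be included.

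CPM, from the total of each cell, was analysed as log2(CPM + 1) in Python 3.11.15 with pandas 2.3.3, numpy 2.4.6 and scipy 1.17.1. Figures were drawn with matplotlib 3.10.9. Size factors from scran 1.30.0 (R 4.3.3) were an alternative. Genes of mean CPM 10 or more (8377) formed the background. Cells are not replicates of animals, so no p-value was computed, and Spearman correlations are descriptions over cells. Shares carry exact Clopper-Pearson 95% intervals. The difference script was checked on data with known answers.

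The members, 16 gene lists (248 entries, 225 measured) and rules were chosen with earlier results of these data known. Beside the members and marker genes, the text names relatives of each gene, for each member the 5 genes of highest and the 3 of lowest correlation with the same sign in the 3 title sets, and up to 3 genes of largest correlation per list. Dll1, Mfng and Hes6 are among the latter, of which not all are reported here. Promoter sequences are from RefSeq, GRCm38.p6, which is not the build of the counts. No count was made by coordinates from it.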

Additional observations from a re-analysis of the deposited data

How the results depend on the processing

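Of 536 recomputed values, 477 held, 57 moved and 2 called values turned their sign. Correlations do not use the threshold, so at 5 and 50 CPM they could not change, and they count among those that held. Shares held within their exact interval and gene counts within 1.5 times the main value. Correlations and differences held within the standard deviation of the 3 title sets, and a difference also had to stay on its side of the call at 1, so some that moved did so by little. The overlap of Btg2 with Gadd45g, the correlations of both with Dll1, the differences of both across Neurog2 and that of Btg2 across Ccnb1 did not move under any setting. For Btg2 across Ccnb1 that limit was wide, since the set values were 3.53, 6.18 and 0.87 and set 2 held only 2 Ccnb1 cells. That it held therefore says little about its stability. Thinning to 1000000 reads kept 62 cells. Cdkn1c was the least stable. Its difference across Ccnb1 (-1.02) was 0.82 without title set 1, -0.88 with scran size factors, -0.92 without cells of under 1000000 reads, -0.77 on thinned counts, -0.68 on log2(CPM + 10) and -0.51 without the subpallial type cells. Across Dcx (1.41) it was -0.19 without title set 1, 0.82 on log2(CPM + 10) and 0.48 without the subpallial type cells. Gadd45g across Neurod6 (-1.05) was -0.51 without title set 1, -0.72 without set 2, -0.95 thinned, -0.70 on log2(CPM + 10) and -0.68 without the subpallial type cells. Across Eomes (2.78) Gadd45g was 1.69 on log2(CPM + 10) and 3.50 without the subpallial type cells. On log2(CPM + 10), Btg2 was 0.86 across Eomes, -1.93 across Neurod6 and -1.69 across Dcx, and Cdkn1b 0.81 across Neurod6. Cdkn1b across Neurog2 (0.96) was 1.36 without set 2 and 1.13 both thinned and without cells of under 1000000 reads. Btg2 across Neurod6 was -4.00 without title set 1. Without set 3, Cdkn1b was 0.87 across Eomes and 0.65 across Neurod6, and its share of cells was 84.1%, while at a 50 CPM threshold the share was 50.8%. The cause of each shift was not tested. Leaving out the 2 cells with meningeal genes was chosen after the data were seen, and of the members' differences it moved that of Cdkn1c across Neurod6, from 0.71 to 1.03. That difference was 1.28 without set 2 and 1.40 without the subpallial type cells.

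The larger pseudocount left fewer genes called. With Eomes 263 genes were called higher and 179 lower, in place of 892 and 795, and with Neurog2 325 and 110, in place of 1112 and 551. With Ccnb1 they were 980 and 123, in place of 2378 and 388, with Neurod6 597 and 354, in place of 1405 and 1137, and with Dcx 417 and 628, in place of 1050 and 1613. Without title set 1, 1502 genes were called lower with Eomes, 1368 lower with Neurog2, 874 lower with Ccnb1 and 2242 higher with Neurod6. Without set 3, 1709 were called lower with Neurod6 and 2511 lower with Dcx. No paired analysis was possible because all cells form 1 group. Depth limits low values most, since 1 read in the shallowest cell exceeds the 10 CPM threshold.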
